A study of Mus musculus with 3 samples.

Results

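The let-7 and miR-98 family was followed across 3 plasma pools, from mice after resistance exercise, mice after aerobic exercise and caged control mice. Its members were the 9 probes of the chip named for the mature 5p arms of let-7a, let-7b, let-7c, let-7d, let-7e, let-7f, let-7g and let-7i and for miR-98-5p, out of 1900 miRNA probes in all. They were chosen by name and not by their values, although earlier results of these data were known when the family was picked.

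The resistance pool and the aerobic pool each held plasma drawn 3 h after an acute bout of exercise, and the control pool came from mice kept in normal cages. All were male C57BL/6 mice, a common inbred strain, aged 8 weeks and fasted overnight. Each pool combined 100 µl from each of 3 mice and was hybridized to 1 single-colour 3D-Gene miRNA chip, so no test between groups was possible and no p-value is given. The exercise protocol is not used here.

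let-7 was first described in the worm Caenorhabditis elegans as a regulator of developmental timing. In mammals its mature 5p arms, loaded into Argonaute proteins, find messenger RNAs mainly through the seed, the bases near the 5′ end, and repress growth and proliferation genes such as Hmga2 and the Ras genes. The RNA-binding protein Lin28 blocks the processing of let-7 precursors, and the mature miRNAs are abundant in differentiated tissues and blood cells. The 5p arm of the hairpin is the one usually kept, and the 3p arm is mostly degraded.

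The mature sequences are shown because members differ by so few bases that a probe for 1 member could also bind another. All 9 matched the RefSeq miRNA table (GRCm38.p6). Seed bases 2 to 8 are in capitals.
let-7a-5p: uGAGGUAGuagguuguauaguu
let-7b-5p: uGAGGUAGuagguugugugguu
let-7c-5p: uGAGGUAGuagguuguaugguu
let-7d-5p: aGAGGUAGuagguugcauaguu
let-7e-5p: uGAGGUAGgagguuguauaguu
let-7f-5p: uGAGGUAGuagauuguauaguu
let-7g-5p: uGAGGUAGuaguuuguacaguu
let-7i-5p: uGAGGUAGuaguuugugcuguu
miR-98-5p: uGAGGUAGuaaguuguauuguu

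All 9 are 22 bases long and share 1 seed. Counted from the 5′ end and with let-7a-5p first, let-7c-5p differs by A19G, let-7e-5p by U9G and let-7f-5p by G12A. let-7b-5p carries A17G and A19G, let-7d-5p U1A and U16C, let-7g-5p G12U and U18C, and miR-98-5p G11A and A19U. let-7i-5p stands farthest from let-7a-5p, with G12U, A17G, U18C and A19U. Over the 36 pairs of members the number of differing positions ran from 1 to 6. How well each probe tells members apart was not tested, so a member's intensity may include signal from its near copies.

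The genes lie in several clusters (GRCm38.p6). On the minus strand of chromosome 13, Mirlet7a-1 (chr13:48538179-48538272), Mirlet7f-1 (chr13:48537829-48537917) and Mirlet7d (chr13:48536012-48536114) follow each other with gaps of 261 bp and 1714 bp. On the plus strand of chromosome 15, Mirlet7c-2 (chr15:85706603-85706697) and Mirlet7b (chr15:85707319-85707403) lie 621 bp apart within the span of the long non-coding gene Lncppara. Mirlet7f-2 (chrX:151912346-151912428) and Mir98 (chrX:151913214-151913321) lie 785 bp apart within the span of Huwe1, which encodes a ubiquitin ligase.

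The other hairpins sit alone or beside unrelated miRNAs. Mirlet7a-2 (chr9:41536716-41536811) lies 5211 bp from Mir100 within Mir100hg, Mirlet7c-1 (chr16:77599657-77599750) 656 bp from Mir99a, and Mirlet7e (chr17:17830352-17830444) 94 bp from Mir99b and 367 bp from Mir125a within the span of Spaca6. Mirlet7g (chr9:106178840-106178927) lies within the span of Wdr82, and no other miRNA gene is annotated within 10 kb of it or of Mirlet7i (chr10:122985640-122985724). The table used gives gene spans and not exons, so exonic and intronic positions are not stated.

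Of the 1900 miRNA probes, 1372 were detected on the resistance array, 1364 on the aerobic array and 1431 on the control array, a probe counting as detected where its raw intensity lay more than 2 SD above the mean of the array's blank spots. Spots printed without a probe also passed this threshold, 20.1% of them in resistance, 4.02% in aerobic and 78.7% in control plasma. These counts, and the later sets of detected probes, may thus include dim spots without miRNA signal, above all on the control array. The higher count in control plasma is therefore not read as more miRNAs present. Red cell miR-451a was bright, at raw intensities of 5245 in resistance, 5741 in aerobic and 3056 in control plasma. Of the skeletal and cardiac muscle probes, 3 (miR-208a-3p, miR-499-5p, miR-208b-3p) were detected on no array. Above blank, all detected miRNA probes summed to 428423 in resistance, 567695 in aerobic and 463539 in control plasma.

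All 9 family members passed the detection threshold in every pool, with the intensities of moderately dim spots. For miR-98-5p in control plasma this is uncertain, since 25 of 174 spots printed without a probe were at least as bright there. mmu-let-7a-5p, as the chip names it with the prefix for mouse, had a raw intensity of 393 in resistance, 388 in aerobic and 237 in control plasma, where blank spots averaged 93.3, 92.9 and 92.0. Both exercise pools lay well above the control pool for it and close to each other. mmu-let-7b-5p stood at 406 in resistance, 409 in aerobic and 260 in control plasma, and mmu-let-7c-5p, which differs from it by 1 base, at 404, 411 and 259 in the resistance, aerobic and control pools. mmu-let-7d-5p stood at 360, 357 and 229 in the resistance, aerobic and control pools. These 4 formed the bright end of the family on every array.

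The other 5 were dimmer. mmu-let-7f-5p had 253 in resistance, 250.1 in aerobic and 174 in control plasma. mmu-let-7g-5p had 220.2, 210.4 and 156 in the resistance, aerobic and control pools. Again the exercise pools were close together and the control pool was lowest. mmu-let-7i-5p had 191 in resistance, 193 in aerobic and 159 in control plasma, and mmu-let-7e-5p 187, 202 and 141 in the resistance, aerobic and control pools. For every member, the control spot was the dimmest of the 3.

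mmu-miR-98-5p was close to background. Its raw intensity was 118 in resistance, 111 in aerobic and 99.9 in control plasma. That put it 13.2 SD of the blank spots above blank in resistance plasma, 6.00 SD in aerobic plasma and 5.57 SD in control plasma. Under a threshold of 10 SD it was thus detected in the resistance pool only, while the 8 let-7 members, at 33.0 SD or more, passed on all arrays.

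**Figure D1:**
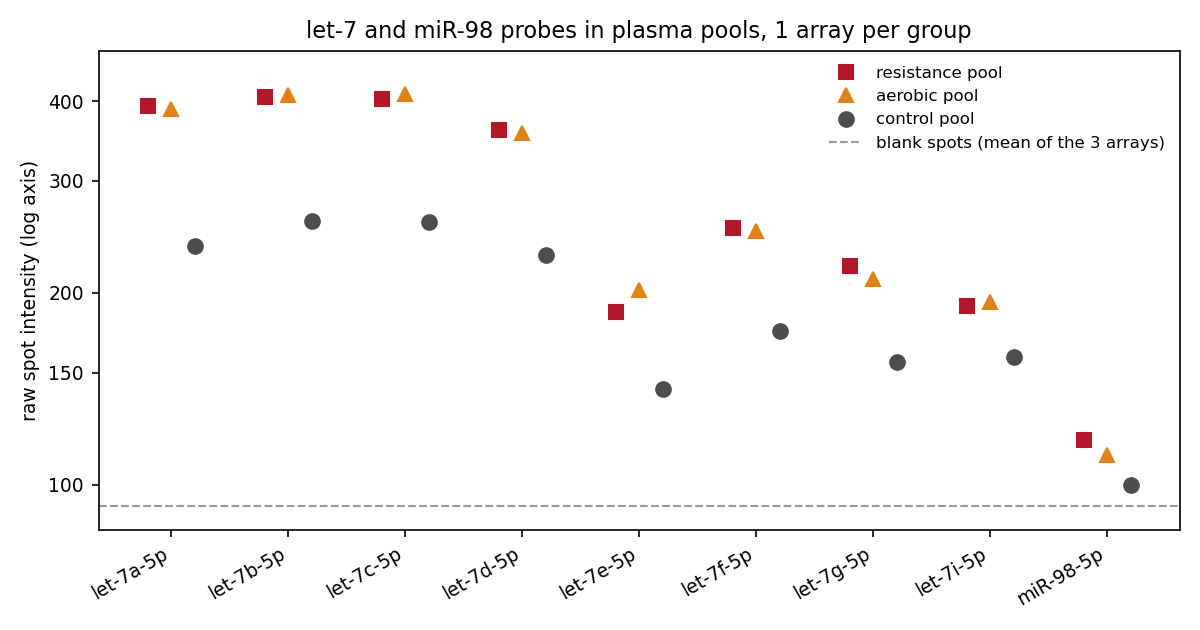
Raw spot intensity (log axis) of each family member in the resistance (squares), aerobic (triangles) and control (circles) pools, 1 spot per point, with the mean blank level as a dashed line. For every member both exercise pools lie above the control pool, and miR-98-5p lies nearest to the blank level, at 118, 111 and 99.9 in the resistance, aerobic and control pools.

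The order of the members was much the same on each array. let-7b-5p and let-7c-5p led on all 3, followed by let-7a-5p, let-7d-5p and let-7f-5p, and miR-98-5p was last. let-7b-5p and let-7c-5p changed places between arrays, as did let-7e-5p, let-7g-5p and let-7i-5p, and the other members kept theirs. A step between neighbours in this order was read against 2 SD of the scatter between repeated spike-in spots, which is 0.32 for a difference of 2 spots on the log2 scale. By that limit, on each array the drop to let-7f-5p after let-7d-5p and the drop to miR-98-5p exceeded spike-in scatter, and the other neighbours did not. Dimmer control spots gave wider limits, 0.43 for S-Probe7 and 0.77 for Negative Control 1 spots. Both drops passed the S-Probe7 limit on each array. The drop to let-7f-5p (0.55 in resistance, 0.56 in aerobic, 0.44 in control plasma) passed the Negative Control 1 limit on no array. The drop to miR-98-5p passed it in resistance (0.88) and aerobic (0.99) but not in control plasma (0.76). Different probes bind with different strength, so this is an order of spot intensities and not of amounts in plasma.

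Above blank, the 9 members summed to 1692 in resistance, 1696 in aerobic and 886 in control plasma. The sum was thus 1.91 times that of control after either form of exercise. As a share of all miRNA signal the family made up 0.395% in resistance, 0.299% in aerobic and 0.191% in control plasma. Within the family the 4 brightest members carried most of the signal in each pool, let-7b-5p alone 18.5% of it in resistance, 18.6% in aerobic and 18.9% in control plasma. In percentage points let-7i-5p was the member whose part of the family sum differed most from control, at 5.75% in resistance, 5.93% in aerobic and 7.52% in control plasma. As a ratio, the part of miR-98-5p differed more in resistance plasma, at 1.44% in resistance, 1.08% in aerobic and 0.887% in control plasma.

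For comparisons between pools, intensities were background corrected, brought to 1 distribution over the 3 arrays by quantile normalization and expressed as log2 values. In plasma, a change in the number of cells that release a miRNA and a change in the amount each releases cannot be told apart. The spike-in limit of 0.32 covers spots on an array, not mice, pools or hybridizations. The spikes are far brighter than the members, and the dimmer S-Probe7 control spots gave 0.43 and the Negative Control 1 spots 0.77 for the same limit.

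The first comparison asked how the family stood after resistance exercise. All 9 members were higher in the resistance pool than in the control pool, with a median log2 difference of 0.63, or 1.55-fold. The largest difference was that of let-7a-5p (0.79, 1.73-fold), although miR-98-5p led where dim spots were not pulled together, at 1.57 with the blank mean subtracted. let-7a-5p was followed by let-7d-5p (0.74, 1.67-fold), let-7b-5p and let-7c-5p (0.68 and 1.60-fold each). let-7f-5p stood at 0.63 and let-7g-5p at 0.61, let-7e-5p at 0.47, miR-98-5p at 0.35 and let-7i-5p at 0.29.

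Of all 1336 miRNAs detected on both of these arrays 44.2% were higher, and their median difference was -0.01. Of the 9 family members, 8 exceeded the spike-in limit, against 5.61% of all miRNAs compared, with let-7i-5p the exception. By the S-Probe7 limit 7 did, against 3.89%, and by the Negative Control 1 limit only let-7a-5p, against 0.374%. At least 1.5-fold higher were 6 members, against 1.65% of all. miRNAs with numbers under 1000, which include the well-known conserved ones and here also let-7, gave higher shares, with 58.2% higher, 11.4% past the spike-in limit, 7.97% past the S-Probe7 limit and 3.59% at least 1.5-fold higher. let-7a-5p ranked 5 and let-7d-5p 8 among the 1336 differences, while let-7i-5p ranked 79.

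The second comparison was of aerobic exercise with caging. All 9 members were again higher, with a smaller median log2 difference of 0.43 (1.35-fold). let-7a-5p led with 0.51 (1.42-fold). let-7d-5p stood at 0.46, let-7c-5p at 0.45, let-7e-5p at 0.44 and let-7b-5p at 0.43, so that 5 members lay within a narrow band. let-7f-5p stood at 0.34 and let-7g-5p at 0.29, and miR-98-5p and let-7i-5p were lowest, at 0.13 and 0.12.

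Among all 1321 miRNAs compared here 48.6% were higher, with a median of 0. Past the spike-in limit were 6 members, against 3.79% of all miRNAs, and past the S-Probe7 limit 5, against 1.36%. No member reached 1.5-fold, which 0.454% of all miRNAs did, or passed the Negative Control 1 limit, which 0.151% did. Among miRNAs numbered under 1000 with let-7, 56.3% were higher, 6.33% passed the spike-in limit, 2.45% the S-Probe7 limit and 0.612% 1.5-fold. let-7a-5p ranked 8 and let-7d-5p 11 of the 1321 differences, and let-7i-5p 176.

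**Figure D2:**
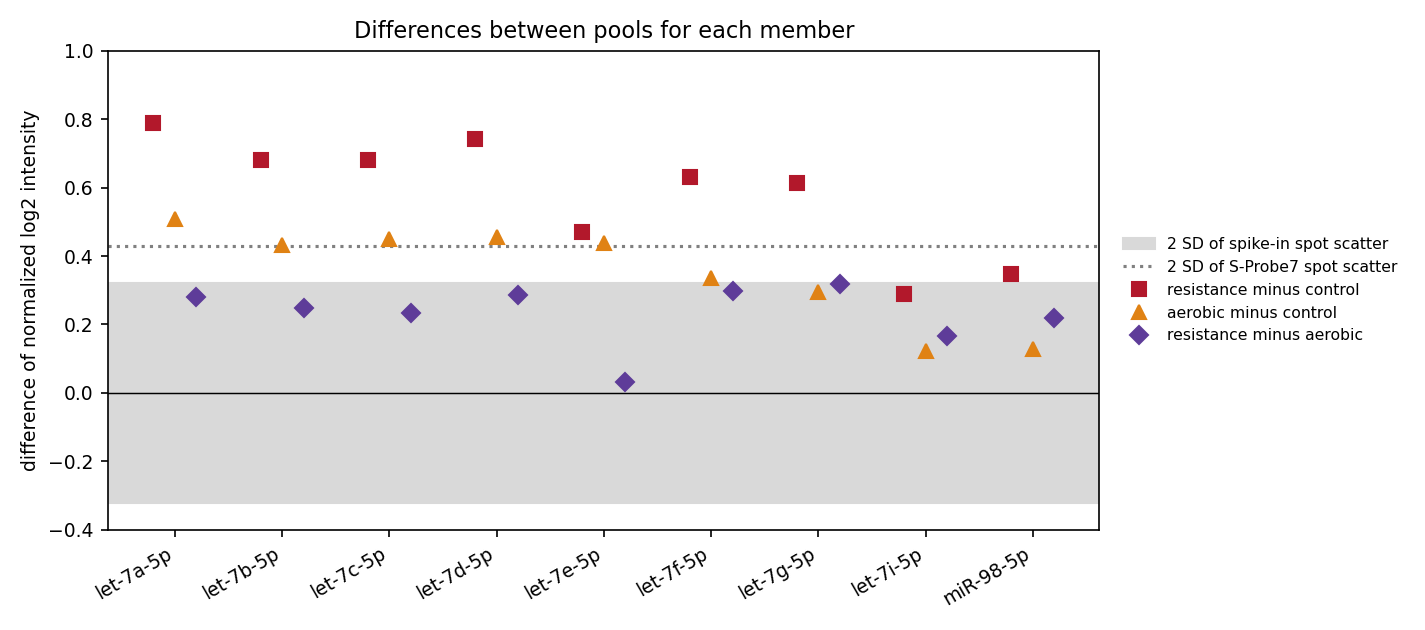
Difference of normalized log2 intensity for each member, as resistance minus control (squares), aerobic minus control (triangles) and resistance minus aerobic (diamonds), with 2 SD of spike-in spot scatter shaded and that of the S-Probe7 spots dotted. All points lie above 0, those of resistance minus control are highest for every member, and those of resistance minus aerobic lie inside the shaded band.

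Both comparisons share the 1 control array, so its error enters each, and the likeness of the members' order in them is no independent support. On the authors' scale the folds were mostly larger. The authors' deposited table put let-7a-5p 1.94-fold, let-7g-5p 1.87-fold and let-7i-5p 1.37-fold higher in resistance than in control plasma. For aerobic against control plasma the authors' deposited table gave 1.47-fold for let-7a-5p, 1.60-fold for let-7e-5p and 1.09-fold for let-7i-5p. The authors' deposited table set miR-98-5p, the dimmest member, at 2.89-fold for resistance and 1.67-fold for aerobic against control, against 1.27-fold and 1.09-fold here. The offset used here pulls folds of dim spots towards 1, and a few units of background decide the fold of a spot this dim.

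**Figure D3:**
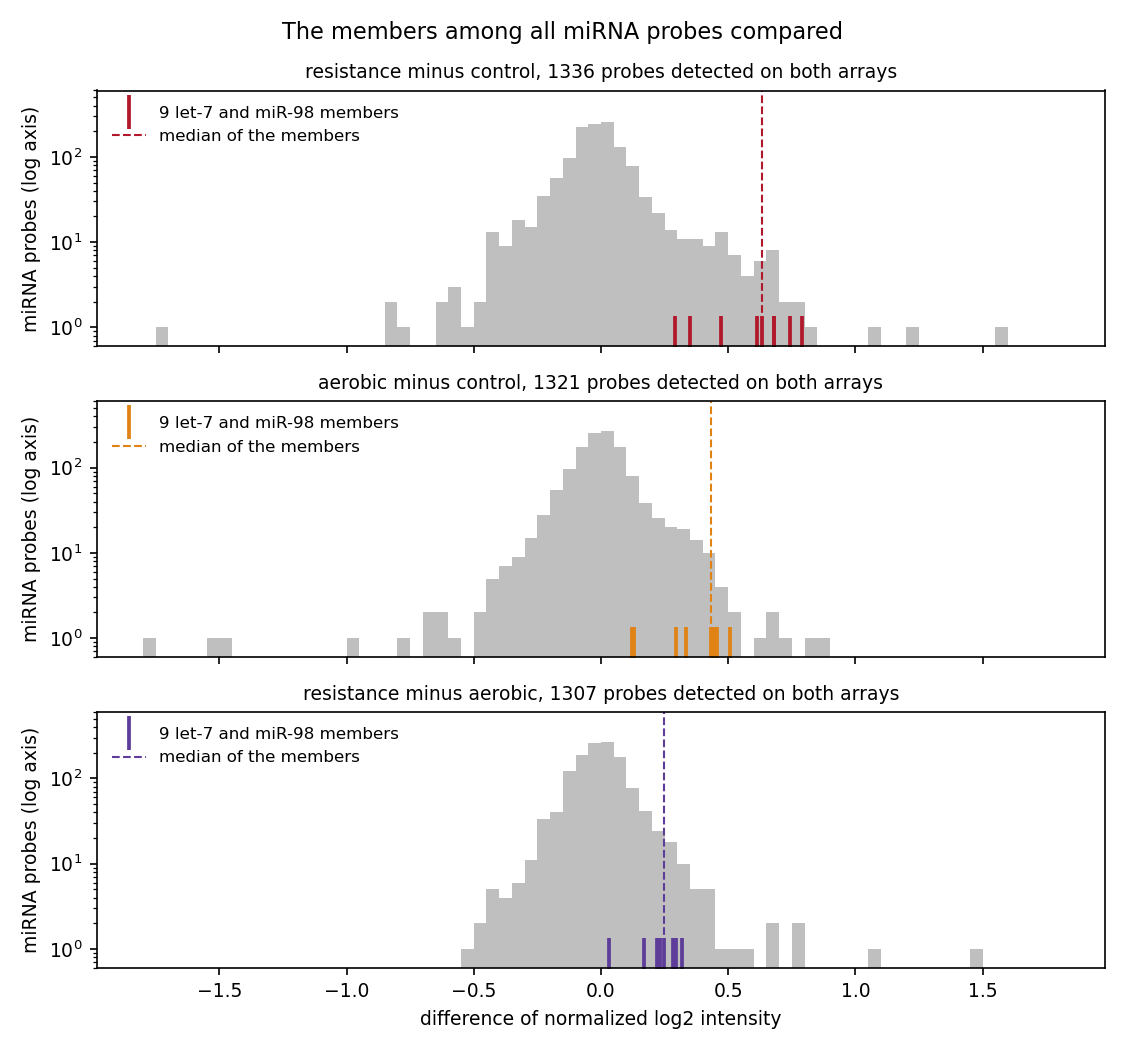
Histograms (log axis) of the normalized log2 differences of all miRNA probes detected on both arrays, for each of the 3 comparisons, with the 9 members as ticks and their median as a dashed line. The members lie on the higher side in each panel, with medians of 0.63, 0.43 and 0.25 for resistance minus control, aerobic minus control and resistance minus aerobic.

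The third comparison set the exercise modes against each other. After normalization all 9 members were higher in resistance than in aerobic plasma, by a median of 0.25 (1.19-fold), against 46.6% of the 1307 miRNAs compared and a median of -0.01 over all of them. let-7g-5p had the largest difference at 0.32, let-7f-5p stood at 0.30 and let-7d-5p at 0.29, and let-7e-5p had the smallest at 0.03. No member exceeded the spike-in limit, which 1.91% of all miRNAs did, none the S-Probe7 limit, against 0.842%, or the Negative Control 1 limit, against 0.306%, and none reached 1.5-fold, against 0.536%. Among miRNAs numbered under 1000 with let-7, 56.9% were higher, 3.7% passed the spike-in limit, 1.85% the S-Probe7 limit and 1.23% 1.5-fold.

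This last direction rested on the scaling between arrays. The raw spots of the exercise pools were nearly equal, with resistance over aerobic ratios of 0.922 for let-7e-5p to 1.06 for miR-98-5p. Without scaling, the median of the members was 0.00 and 5 of 9 were higher, against 4.90% of all miRNAs compared. The median over all miRNAs was -0.19. The unscaled difference of each member lay within spot scatter, and the members' median lay 0.19 above that of all miRNAs. For aerobic minus control the same unscaled median over all miRNAs was 0.20 and that of the members 0.68, which left the members 0.49 above it. For resistance minus control those medians were 0.01 over all miRNAs and 0.66 over the members.

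The members did not all move by the same amount. In terms of signal above blank, 7 members, all but let-7i-5p and miR-98-5p, were between 1.86 and 2.07 times as bright in resistance as in control plasma. The same 7 were between 1.85 and 2.23 times as bright in aerobic as in control plasma. let-7i-5p stood at 1.46 times for resistance and 1.51 times for aerobic over control. On the normalized scale it lay 0.34 and 0.31 below the family median in these comparisons, in the same order. For a gap to the family median no limit was worked out. A gap between 2 single members has a spike-in limit of 0.46 and an S-Probe7 limit of 0.61. The widest such gap, of let-7a-5p and let-7i-5p, was 0.50 for resistance minus control and 0.39 for aerobic minus control. Only the first passed the spike-in limit and neither the S-Probe7 limit, and this pair is the most extreme of 36. let-7i-5p was the lowest of the 8 let-7 members in both comparisons with control under all 10 settings tried. The settings process the same spots, several of them cannot change this order, and both comparisons share the control spot. This is therefore no independent support.

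**Figure D4:**
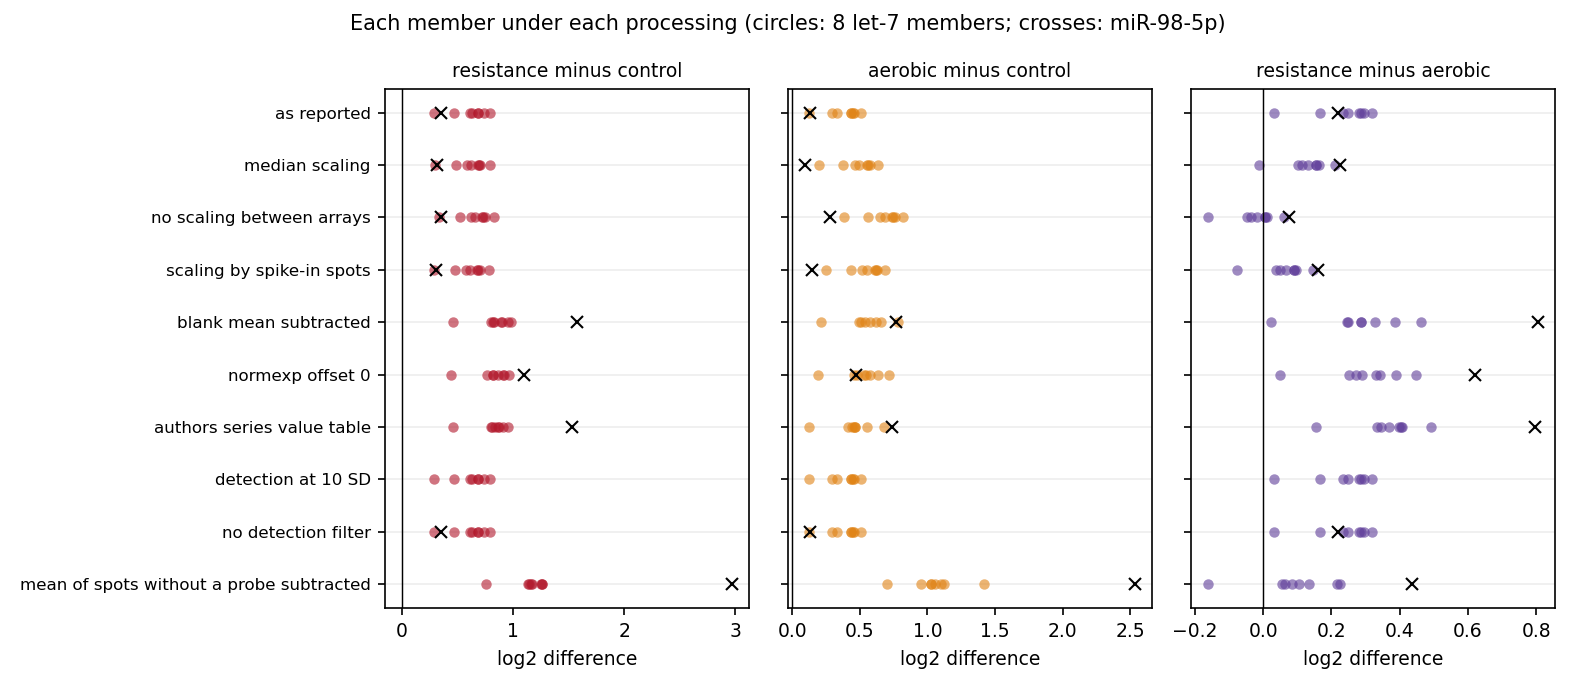
Log2 difference of each member (circles for the 8 let-7 members, crosses for miR-98-5p) under each processing setting, for resistance minus control, aerobic minus control and resistance minus aerobic, with the line at 0. In the comparisons with control all points lie above 0, miR-98-5p moves most between settings, and without scaling the resistance minus aerobic points fall on both sides of 0.

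Gaps between members were set beside the number of positions at which their sequences differ. The pair let-7b-5p and let-7c-5p, which differ at 1 position, stood within 0.01 of each other for resistance minus control. Over the 4 pairs that differ at 1 position the median gap was 0.13 for resistance minus control and 0.07 for aerobic minus control. It was 0.17 and 0.11 over the 10 pairs at 2 positions, 0.14 and 0.14 over the 11 pairs at 3, and 0.27 and 0.17 over the 9 pairs at 4, for the same comparisons. The gap of let-7a-5p and let-7e-5p, which differ at 1 position, was 0.32 for resistance minus control, so the gap did not grow steadily with the number of differing positions. Pairs share members and probes of like sequence may bind the same miRNA, so this is a description only. Within the chromosome 13 cluster, let-7a-5p, let-7d-5p and let-7f-5p stood at 0.79, 0.74 and 0.63 for resistance minus control. let-7f-5p can come from either of its hairpins, on chromosome 13 or beside Mir98. A further let-7a hairpin, Mirlet7a-2, lies on chromosome 9, so the value of let-7a-5p may not be of this cluster alone.

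The other arms of the same hairpins were near 0 in both comparisons. The chip holds 11 probes for them, of which 5 were detected on all arrays and 2 on none. Of the 5, let-7c-1-3p had a raw intensity of 95.9 in control plasma, below the mean of 97.1 for spots without a probe. Its detection there is therefore uncertain. let-7d-3p, the brightest, had raw intensities of 150.3 in resistance, 161 in aerobic and 143 in control plasma, where let-7d-5p had 360, 357 and 229. Its log2 difference was 0.06 for resistance minus control and -0.02 for aerobic minus control. let-7b-3p had 125, 138 and 124 in the resistance, aerobic and control pools and stood at 0.00 and 0.05 for the same comparisons. Against control, the 6 arms compared for resistance had a median of 0.06 and the 7 compared for aerobic exercise a median of -0.02. None of them exceeded the spike-in limit in either comparison. Most of these spots were close to background, where the offset leaves little room for a difference.

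The miRNAs listed as cluster neighbours had smaller median differences from control than the family. These were miR-99a-5p, miR-99b-5p, miR-100-5p, miR-125a-5p and miR-125b-5p, from the miR-99/100 and miR-125 families, whose genes often lie beside those of let-7. No gene of miR-125b-5p lies within 10 kb of a member's hairpin in the annotation used, while the other 4 have one that does. miR-125b-5p had raw intensities of 377 in resistance, 389 in aerobic and 275 in control plasma, the control pool being lowest as for let-7. It stood at 0.46 for resistance and 0.25 for aerobic minus control. miR-99b-5p, which lies beside Mirlet7e, had 132, 137 and 126 in the resistance, aerobic and control pools, with log2 differences of 0.07 and 0.00. Over the 5 neighbours the median was 0.38 for resistance minus control, with 3 past the spike-in limit, and 0.19 for aerobic minus control, with none past it. Of all miRNAs 5.61% and 3.79% passed it in these comparisons, and of those numbered under 1000 with let-7 11.4% and 6.33%.

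Probes for less established members of the family were also on the chip. let-7k shares the seed of the 9 members but is listed with 19 bases, and let-7j, with 24 bases, has another seed. They are shown to allow that comparison.
let-7k: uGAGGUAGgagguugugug
let-7j: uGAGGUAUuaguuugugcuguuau
The let-7k probe had 169.5 in resistance, 163 in aerobic and 137 in control plasma and stood at 0.39 for resistance and 0.11 for aerobic minus control. let-7j was near background at 112, 116 and 105 in the resistance, aerobic and control pools. A further miRNA with the same seed, miR-1961, was detected on no array.

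**Figure D5:**
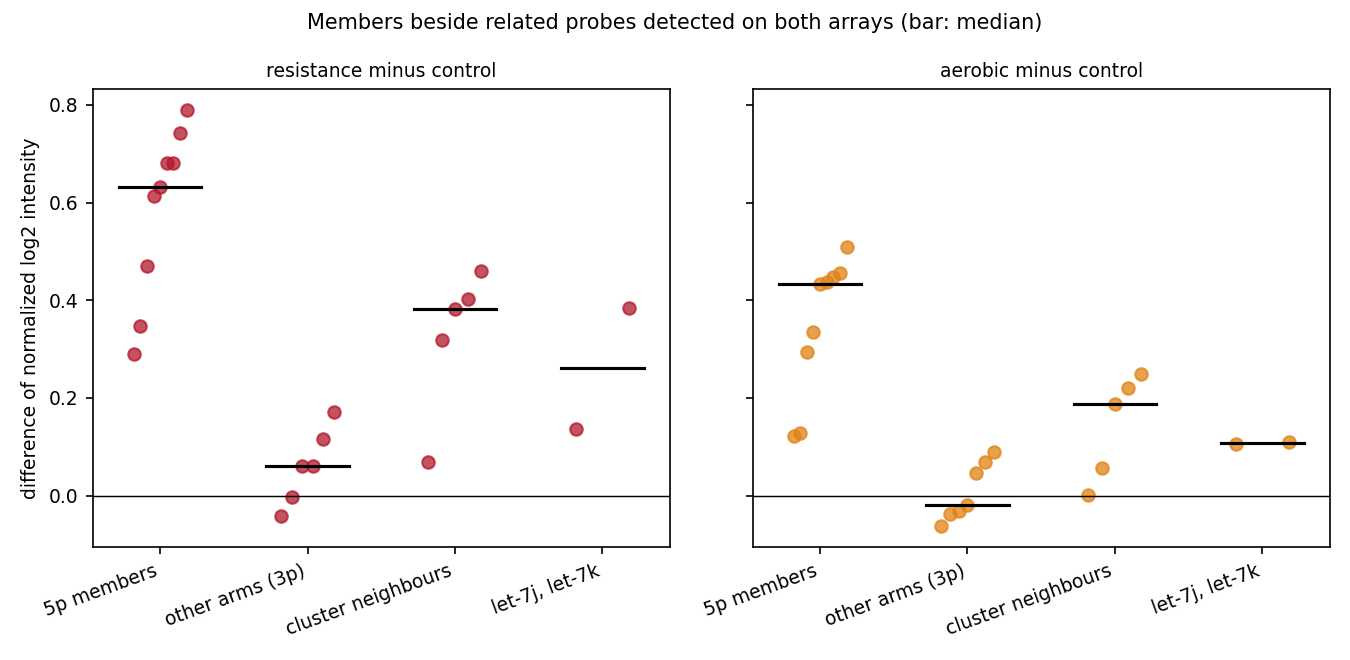
Normalized log2 differences of the 9 members, of the 3p arms of their hairpins, of the cluster neighbours (miR-99, miR-100 and miR-125 5p arms) and of let-7j and let-7k, for resistance minus control (left) and aerobic minus control (right), limited to probes detected on both arrays, with medians as bars. The members have the highest median in both panels (0.63 and 0.43) and the 3p arms lie around 0 (0.06 and -0.02).

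Outside the family, the 5 probes nearest to its median pair of differences, over 3 arrays and among 1280 probes detected on all of them, were miR-6896-5p, miR-30c-5p, miR-15b-5p, miR-126a-5p and miR-30d-5p. The distances ran from 0.02 for miR-6896-5p to 0.07 for miR-30d-5p on the log2 scale. miR-30c-5p, for example, had raw intensities of 362 in resistance, 385 in aerobic and 250 in control plasma, and stood at 0.61 for resistance and 0.44 for aerobic minus control. Among the members, let-7b-5p lay nearest to the median pair, at 0.05, and let-7i-5p farthest, at 0.46.

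Summed over their probes, markers of blood cells were also brighter in both exercise pools than in the control pool. Of 8 erythrocyte probes 7 were detected on all arrays and 1, miR-144-5p, on none. Their summed signal above blank was 6896 in resistance, 7478 in aerobic and 3917 in control plasma. That is 1.76 and 1.91 times control for resistance and aerobic exercise, with miR-451a alone making up most of each sum. The lowest of the 7, miR-363-3p, stood at 0.01 for resistance and 0.03 for aerobic minus control. miR-16-5p, abundant in red cells, stood at 1.24 for resistance and 0.82 for aerobic minus control, more than any let-7 member. All 7 compared erythrocyte probes were higher in both comparisons, with medians of 0.44 for resistance and 0.35 for aerobic minus control. In these comparisons 5 and 4 of them passed the spike-in limit, against 5.61% and 3.79% of all miRNAs. Among miRNAs numbered under 1000 with let-7 the shares were 11.4% and 6.33%.

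The 7 platelet probes, all detected on every array, summed to 2720 in resistance, 2753 in aerobic and 1858 in control plasma. Their median differences from control were 0.45 for resistance, with 5 of 7 past the spike-in limit, and 0.24 for aerobic exercise, with 1 of 7 past it. miR-223-3p was the exception in resistance plasma, at -0.06, and was also the lowest of the 7 for aerobic minus control, at 0.01. The 6 leukocyte probes, 5 of them detected on all arrays, summed to 474 in resistance, 480.3 in aerobic and 333 in control plasma, with medians of 0.13 in both comparisons. Of the 5 compared, 1 passed the spike-in limit for resistance and 0 for aerobic exercise, where miR-146a-5p stood at -0.16. For both lists the shares of all miRNAs past this limit were 5.61% for resistance and 3.79% for aerobic minus control. Among miRNAs numbered under 1000 with let-7 they were 11.4% and 6.33%. Since let-7 is carried by blood cells too, the part of these cells in the family's values was not tested.

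The 3 liver probes summed to 189 in resistance, 318 in aerobic and 147 in control plasma, and hepatocyte miR-122-5p was the only one of them past the spike-in limit, at 0.68 for aerobic minus control. The muscle probes, of which 3 of 7 were detected on every array, summed to 316 in resistance, 161 in aerobic and 596 in control plasma, the opposite direction to let-7.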

How the data were processed

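Plasma miRNA was measured on 3 single-colour arrays, 1 pool of 3 mice per group, so samples were grouped by their titles and no replicates exist. The extraction protocol in the labels speaks of cells, while all other labels name plasma, which was taken as the source. Cy5-labelled RNA was hybridized, per the labels' protocols. The deposited scanner files give raw intensity for 3200 spots per array, background-subtracted intensity and globally normalized intensity, per the file headers. From the values, the authors subtracted 1 background per array and scaled the median miRNA to 25. The deposited value table repeats that intensity to within 0.05. The scanner is not given in the sources used. The series text calls the chip human, while all miRNA probes carry mouse names.

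The background was the mean of the 896 blank spots per array, trimmed by 5% at each end (806 left), a rule that gave 0 differences from the authors' empty cells. Intensities were corrected with normexp (limma 3.58.1, R 4.3.3, offset 50), the 1900 miRNA probes quantile normalized and differences taken as log2. The steps were tested on simulated data. There the scatter was near that of the spike-in spots, spots as dim as miR-98-5p were given no change, and arrays had no scaling difference. The simulation thus says nothing about folds of miR-98-5p or about the scaling between arrays. Sequences and positions are from RefSeq (GRCm38.p6). All members are named, and outside them only the listed marker, arm and neighbour probes and the 5 nearest patterns. Members, lists and limits were chosen with earlier results of these data known. There were 9 alternatives, given in the closing section. The number of arrays limits the precision.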

Additional observations from a re-analysis of the deposited data

Results flagged for a closer look

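Spots printed without a probe carried signal above the detection threshold. With all other spots of an array they entered the normexp background fit, and an alternative setting subtracted their mean. Of 174 such spots per array, 20.1% passed it on the resistance array, 4.02% on the aerobic array and 78.7% on the control array. At least as bright as miR-98-5p were 1 of these spots on the resistance array, 2 on the aerobic array and 25 on the control array. None reached the intensity of let-7e-5p on any array. Detection of miR-98-5p in control plasma, at a raw intensity of 99.9 against a mean of 97.1 ± 3.83 (SD over spots) for spots without a probe, is therefore uncertain, and so are its folds against control. The cause of the signal was not tested.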

How the results depend on the processing

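The members' median was above 0 in all 3 comparisons under all 9 alternatives. Every member was higher than control in every setting that kept it, but in some settings so were most miRNAs compared. For aerobic minus control these were 96.8% without scaling, 72.9% with spike-in scaling and 97.5% with the mean of spots without a probe subtracted. That last setting gave 86.7% for resistance minus control. In the other settings the share was 33.5% to 53.6% for resistance and 40.0% to 53.1% for aerobic minus control. For resistance minus control the members' median was 0.89 with the blank mean subtracted, 0.87 with a normexp offset of 0 and 0.86 in the authors' deposited table. The number of members at least 1.5-fold higher was 5 to 8 under the planned settings. It was 5 with spike-in scaling, where 1.20% of all miRNAs were, and 8 with the blank mean subtracted (7.26%), with an offset of 0 (4.57%) and in the authors' deposited table (6.21%). For aerobic minus control the median was 0.68 without scaling. The 0 members at least 1.5-fold higher there became 1 with median scaling, 6 without scaling, 4 with spike-in scaling, 4 with the blank mean subtracted, 2 with an offset of 0 and 2 in the authors' deposited table. Among all miRNAs those settings called 0.908%, 4.24%, 1.51%, 5.53%, 2.27% and 4.92%, in the same order. For resistance minus aerobic, without scaling the members' median was 0.0042 and 5 members were higher, against 4.90% of all miRNAs. 1 member, miR-98-5p, reached 1.5-fold with the blank mean subtracted, with an offset of 0 and in the authors' deposited table, as did 4.36%, 1.61% and 3.14% of all miRNAs. let-7e-5p was lower in resistance than in aerobic plasma with median scaling (-0.01), without scaling (-0.16), with spike-in scaling (-0.08) and with spots without a probe subtracted (-0.16). Without scaling let-7b-5p (-0.02), let-7c-5p (-0.04) and let-7i-5p (-0.05) were lower too. The cause of these changes was not tested. Subtracting the mean of spots without a probe, an alternative chosen after seeing the data, gave medians of 1.17 and 1.06 for resistance and aerobic minus control and 9 members at least 1.5-fold higher than control after aerobic exercise, as were 60.8% of all miRNAs. It also moved the median of all miRNAs to 0.36 and 0.70. The order of the members on each array could not change, since every scaling and background alternative keeps the order of spots on an array. A threshold of 10 SD leaves out miR-98-5p. With 1 array per group, no replicate could be left out, and neither mice, pools nor hybridizations have a measured spread. No paired analysis was possible because each group has 1 array.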
